A study of Saccharomyces cerevisiae with 8 samples.

Results

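The stage changes of 2 xylose-fermenting Saccharomyces cerevisiae strains were compared gene by gene, and the genes described here are those whose change between the stages differed between the strains. For each gene the log2 change from the X stage to the GX stage was taken in each strain, and the change in BSGX001 was subtracted from the change in XH7. This value is called the difference of the stage changes, and a positive value means a larger rise or a smaller fall in XH7. All 8 libraries of the series entered 1 fit of 4 groups of 2 libraries, in which 5921 of 6170 gene identifiers were tested and 1750 passed an adjusted p threshold of 0.05 (edgeR's quasi-likelihood test with Benjamini-Hochberg adjustment). For every called gene the 2 strains were also compared at each stage, so that the difference could be placed at the X level, at the GX level or at both. Over all genes tested, the strains differed in 55.5% at X and in 66.0% at GX, and the stage change passed in 47.7% in BSGX001 and in 48.7% in XH7.

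BSGX001 is a haploid strain built on CEN.PK113-5D that carries the xylose isomerase gene Ru-XI, the xylulokinase gene XK, genes of the pentose phosphate pathway placed at gre3 and a cox4 deletion. XH7 is a diploid that carries XI at pho13 and at 3 δ sites, the same pathway genes at gre3, and XK, and both strains were evolved on xylose. At the X stage cells had grown for 12 h on 20 g/L xylose alone, and at the GX stage for 14 h on 20 g/L glucose with 20 g/L xylose, when the glucose was used up. The strains thus differ in ploidy, in background, in xylose isomerase and in COX4 at once, so none of these can be told apart as a source of a difference, and each group is 1 evolved line grown in duplicate fermenters. The labels give CEN.PK113-5D for both strains, while the study's methods derive XH7 from a wild diploid isolate. The study's strain list places an alteration at pho13 in XH7 only, but its text gives deletions of GRE3 and PHO13 in both strains.

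Yeast that runs out of glucose turns from fermentation towards respiration, gluconeogenesis and the use of stored or poorer carbon, and genes that glucose had repressed are released. Protein synthesis is tuned to growth at the same time: the Gcn4 activator drives the amino acid synthesis genes when amino acids are short, Msn2 and Msn4 switch on stress and storage genes through a short promoter element, and the RNA-binding protein Puf3 binds a motif behind the stop codon of many messengers for mitochondrial proteins.

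The libraries held between 5279867 and 7675092 counts, with 6018 to 6100 genes detected in each. In such bulk RNA a change in every cell and a change in the share of cells cannot be told apart. Ploidy markers separated the strains: the summed level of the 7 a-specific genes was 934.3 to 1156 CPM (counts scaled to a fixed library total) in BSGX001 and 55.07 to 71.63 in XH7. The pheromone genes MFA1 and MFA2 were at 0 counts in XH7, but were low in BSGX001 too, at 8 to 30 and 10 to 39 counts. The alpha-specific genes STE3 and SAG1 differed less, with sums of 68.2–84.27 CPM in BSGX001 and 36.07–55.51 in XH7. The 8 haploid-specific genes in the tables summed to 824.9–855.5 CPM in BSGX001 and 67.43–84.55 in XH7. COX4, which encodes subunit IV of cytochrome c oxidase, had 0 counts in all 4 BSGX001 libraries, so its stage changes cannot be compared. GRE3 and PHO13, given as altered in both strains or, for PHO13, in the strain list for XH7 only, kept counts in every library, which goes against a full deletion. GRE3 had 60.2 and 53.3 CPM in the BSGX001_X libraries, 41.6 and 46.3 in BSGX001_GX, 55 and 68.5 in XH7_X and 28.8 and 26.7 in XH7_GX. The level of PHO13 was 127 and 136 CPM in the BSGX001_X libraries, 63.7 and 69.1 in BSGX001_GX, 68.5 and 66.7 in XH7_X and 54.6 and 45.2 in XH7_GX.

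Known elements, 11 in promoters and the Puf3 motif behind the stop codon, were searched around 5464 tested genes in the R64 genome of RefSeq, and an example for each of the 3 regulators named above is shown before the values. The stretch of the HIS4 promoter from 250 to 131 bases before the start codon, at chrIII:68464-68583 on the minus strand, stands for the amino acid synthesis genes, with the Gcn4 core TGACTC in capitals. The same stretch of the DDR2 promoter, at chrXV:231886-232005 on the minus strand, stands for the stress genes, with the stress element AGGGG, which here reads CCCCT on the gene's own strand, in capitals. For the mitochondrial ribosome, 20 bases around the Puf3 motif TGTANATA, in capitals, are shown from 4 of the genes with the largest differences: MRP17 (chrXI:437043-437062, minus strand, 41 bases after the stop codon), MRPS17 (chrXIII:636222-636241, minus strand, 56 bases after), MRPS8 (chrXIII:572766-572785, plus strand, 57 bases after) and MRPL20 (chrXI:599054-599073, minus strand, 27 bases after).
HIS4: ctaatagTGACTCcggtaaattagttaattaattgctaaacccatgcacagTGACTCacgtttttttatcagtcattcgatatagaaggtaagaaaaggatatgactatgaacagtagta
DDR2: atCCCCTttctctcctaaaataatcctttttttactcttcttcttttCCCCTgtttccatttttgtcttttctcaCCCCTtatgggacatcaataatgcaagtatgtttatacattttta
MRP17: aacacaTGTAAATAcataca
MRPS17: acactcTGTAAATAtataca
MRPS8: ggaccaTGTAAATAataata
MRPL20: caatcgTGTAAATActactc

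Of the 5921 genes tested, 29.6% had a stage change that differed between the strains, 912 with a higher value in XH7 (15.4%) and 838 with a lower one (14.2%). The difference was 2-fold or more in 290 genes upward (4.9%) and in 394 genes downward (6.65%). The split depends on the scaling: with library totals in place of TMM factors it was 1617 to 593, and with limma on log2(FPKM + 1) 1527 to 573. The median difference over all genes was 0.0536 with TMM, 0.2359 with library totals and 0.2237 with FPKM. Every called gene kept its sign when any 1 library was left out, and 823 of 1750 (47.0%) also passed the test in all 8 of these fits. The count of higher genes fell to 486 and 503 without replicate 1 or 2 of BSGX001_GX and to 519 and 497 without replicate 1 or 2 of XH7_X, and the lower ones to 490 and 489 without those BSGX001_GX libraries.

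The strains differed by the test at the GX level alone in 611 of the 1750 called genes, at the X level alone in 358 and at both levels in 768, while in 13 neither single comparison passed. A level that missed the threshold is not thereby shown to be equal in the strains. Among the genes with both levels different, the gap between the strains was wider at GX in 447, wider at X in 114 and of opposite sign at the 2 stages in 207. The X-only class held 233 higher and 125 lower genes and the GX-only class 279 and 332. By the changes themselves, 677 genes changed in XH7 only (451 rose, 226 fell), 561 in BSGX001 only (328 rose, 233 fell) and 261 in the same direction by unequal amounts, 185 of them more in XH7. Another 216 genes, 3.65% of those tested, rose in one strain and fell in the other, 125 upward in XH7 and 91 downward. This last count was 69 and 74 without BSGX001_GX replicate 1 and 2 and 142 and 124 without XH7_X replicate 1 and 2. The 4 libraries of a stage fell in ranges that overlapped between the strains at X for 304 called genes and at GX for 152, and at both stages for none.

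**Figure D1:**
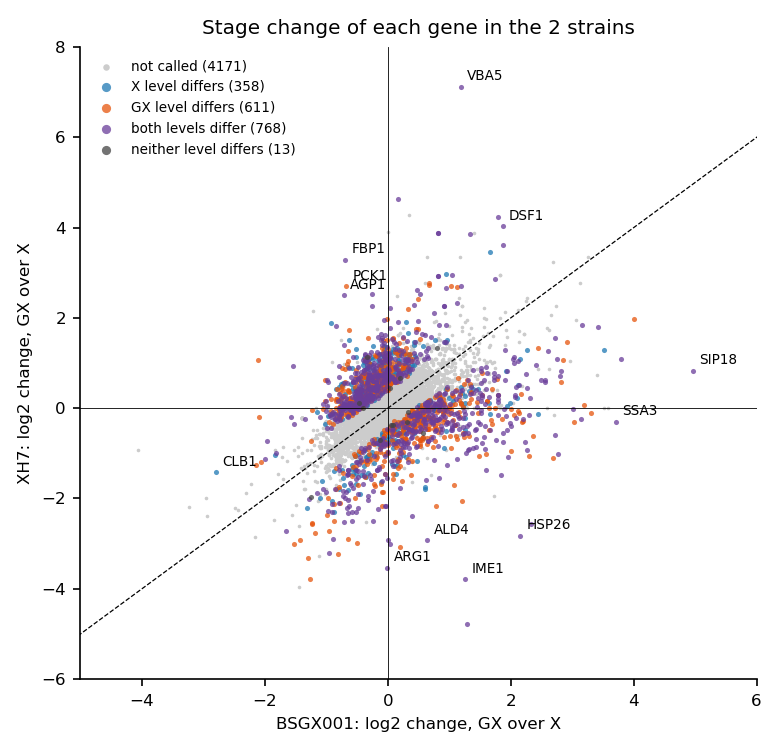
Each point is 1 of 5921 genes, with the log2 change from X to GX in BSGX001 on the horizontal axis and in XH7 on the vertical axis, coloured by the stage at which the strains differed; the dashed line marks equal changes. The 1750 called genes lie on both sides of the line, with VBA5 and FBP1 far above it and HSP26 and IME1 far below.

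Messengers for the mitochondrial ribosome, which makes the few proteins encoded in mitochondrial DNA, moved nearly all one way. Of 73 mitochondrial ribosomal protein genes, 68 had a higher stage change in XH7 and none a lower one, with a median difference of 1.11 against 0.0536 over all genes. In XH7 71 of the 73 rose and the median change was 0.89, whereas in BSGX001 17 fell, 2 rose and the median was -0.11. Their summed level was 13520 and 12120 CPM in the 2 BSGX001_X libraries, 11700 and 11930 in BSGX001_GX, 6337 and 6875 in XH7_X, and 12780 and 11670 in XH7_GX. The XH7_X libraries thus stood below the other 6, and the XH7_GX libraries overlapped those of BSGX001. In 36 of the 68 called genes the strains differed at X only, in 1 at GX only and in 31 at both, 24 of these with XH7 lower at X and higher at GX.

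MRPS17 was measured at 251 and 223 CPM in the BSGX001_X libraries, 205 and 219 in BSGX001_GX, 99.4 and 112 in XH7_X and 321 and 306 in XH7_GX. This small-subunit protein gene was lowest at X in XH7 and highest at GX in XH7, with no overlap between strains at either stage. The difference of its stage changes was 1.74 ± 0.16 (log2, SE, adjusted p = 0.000255), and the gap between the strains (XH7 minus BSGX001, log2) was -1.17 at X and 0.57 at GX. For MRP17 the values were 108 and 92.4 CPM in the BSGX001_X libraries, 92.4 and 94 in BSGX001_GX, 45.9 and 55.7 in XH7_X and 175 and 146 in XH7_GX, with a difference of 1.76 ± 0.19 (adjusted p = 0.000482). MRP17 and MRPS8, also of the small subunit, crossed in the same way. MRPS8 stood at 105 and 89.5 CPM in the BSGX001_X libraries, 89 and 91.3 in BSGX001_GX, 46.7 and 52.7 in XH7_X and 138 and 144 in XH7_GX, with a difference of 1.61 ± 0.16 (adjusted p = 0.000365). MRPL20 had 245 and 226 CPM in the BSGX001_X libraries, 192 and 207 in BSGX001_GX, 81.7 and 91.6 in XH7_X and 233 and 214 in XH7_GX. Here the strains differed at X only, by -1.44, and the difference of the changes was 1.61 ± 0.15 (adjusted p = 0.000303). MRF1, the release factor that ends mitochondrial translation, went in opposite directions in the strains: it fell by 0.52 in BSGX001 and rose by 1.13 in XH7, and differed at X only. The 5 members that were not called were EHD3, RSM10, MRP20, YML6 and KGD4, of which KGD4 is now known as a part of the α-ketoglutarate dehydrogenase complex, and they were looked up after their values were seen. The differences were 0.33 ± 0.17 (adjusted p = 0.179) for EHD3, 0.52 ± 0.20 (adjusted p = 0.0787) for RSM10 and -0.58 ± 0.19 (adjusted p = 0.0507) for KGD4.

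The import machinery, which brings in proteins made in the cytosol, and the assembly factors of the respiratory chain moved in the same direction. Of 36 genes of mitochondrial protein import, 23 were higher and 1, TIM21, lower, with a median difference of 0.71. The small chaperones of the intermembrane space were among the highest: TIM9 had 111 and 96.2 CPM in the BSGX001_X libraries, 97 and 96.2 in BSGX001_GX, 125 and 154 in XH7_X and 364 and 369 in XH7_GX, and its difference was 1.49 ± 0.17 (adjusted p = 0.000606), with XH7 above BSGX001 at both stages and more so at GX. TIM12 (1.53) and TIM8 (1.42) crossed, lower in XH7 at X and higher at GX. Of 42 assembly factors of the respiratory complexes, 20 were higher and none lower, with a median of 0.55, and in 14 of the 20 the strains differed at X only. The level of COX17 was 97.2 and 102 CPM in the BSGX001_X libraries, 128 and 118 in BSGX001_GX, 23.7 and 36.2 in XH7_X and 128 and 97.2 in XH7_GX. The gap between the strains for this copper chaperone of cytochrome c oxidase was -1.72 at X and -0.12 at GX, where the libraries overlapped, with a difference of 1.60 ± 0.26 (adjusted p = 0.0023). PET191 and CBP6, assembly factors of cytochrome c oxidase and of cytochrome b, had differences of 1.38 ± 0.25 (adjusted p = 0.0041) and 1.38 ± 0.26 (adjusted p = 0.00458) and were in the same X-only class. Of 26 respiratory chain genes 5 were higher and 2, NDE2 and CYC7, lower (26.9% called, near the 29.6% of all genes). Beside subunits of the complexes, that list holds the NADH dehydrogenases NDE1, NDE2 and NDI1 and the cytochromes c CYC1 and CYC7. Of 17 ATP synthase genes, which include the regulators INH1, STF1 and STF2, 2 were higher (11.8%). The median difference of the ATP synthase list ran from 0.06 to 0.29 with 1 library left out. The respiratory chain count of 5 was 1 without BSGX001_GX replicate 1 or XH7_X replicate 1, 2 without BSGX001_GX replicate 2 and 3 without BSGX001_X replicate 1, and 13 with library totals. CYC1, cytochrome c, had a difference of 1.09 ± 0.24 (adjusted p = 0.00994), but CYC7, its second form, one of -1.13 ± 0.20 (adjusted p = 0.00335), and CYC1 lost its call without BSGX001_GX replicate 1 or XH7_X replicate 1. The level of CYC7 was nevertheless higher in XH7 at both stages. Its FPKM at X was 638.4 and 773.4 in XH7 beside 164.6 and 192.5 in BSGX001. At GX it was 1546 and 1332 beside 676.0 and 712.4.

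The Puf3 motif TGTANATA, searched on the gene's strand within 200 bases after the stop codon, was present in 71 of the 73 mitochondrial ribosomal protein genes (97.3%), 81.0% of the assembly factors, 63.9% of the import genes, 3.15% of the cytosolic ribosomal protein genes and 15.0% of all 5464 genes that could be searched. It was in 33.8% of the genes called higher and 8.34% of those called lower. Among the 691 genes that hold the motif and belong to none of the 3 mitochondrial lists, 27.8% were called higher and 9.55% lower, beside 12.5% and 15.7% of the 4622 other genes without it. The search was added after the ribosomal protein values were seen, and a match is a description of the sequence and not a bound site. PUF3 was measured at 42.5 and 38.8 CPM in the BSGX001_X libraries, 42 and 47.3 in BSGX001_GX, 59.3 and 69.2 in XH7_X and 119 and 116 in XH7_GX. The gene for the binding protein was itself higher in XH7 at both stages and rose in XH7 only, with a difference of 0.73 ± 0.16 (adjusted p = 0.00883), a call lost without BSGX001_GX replicate 1.

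**Figure D2:**
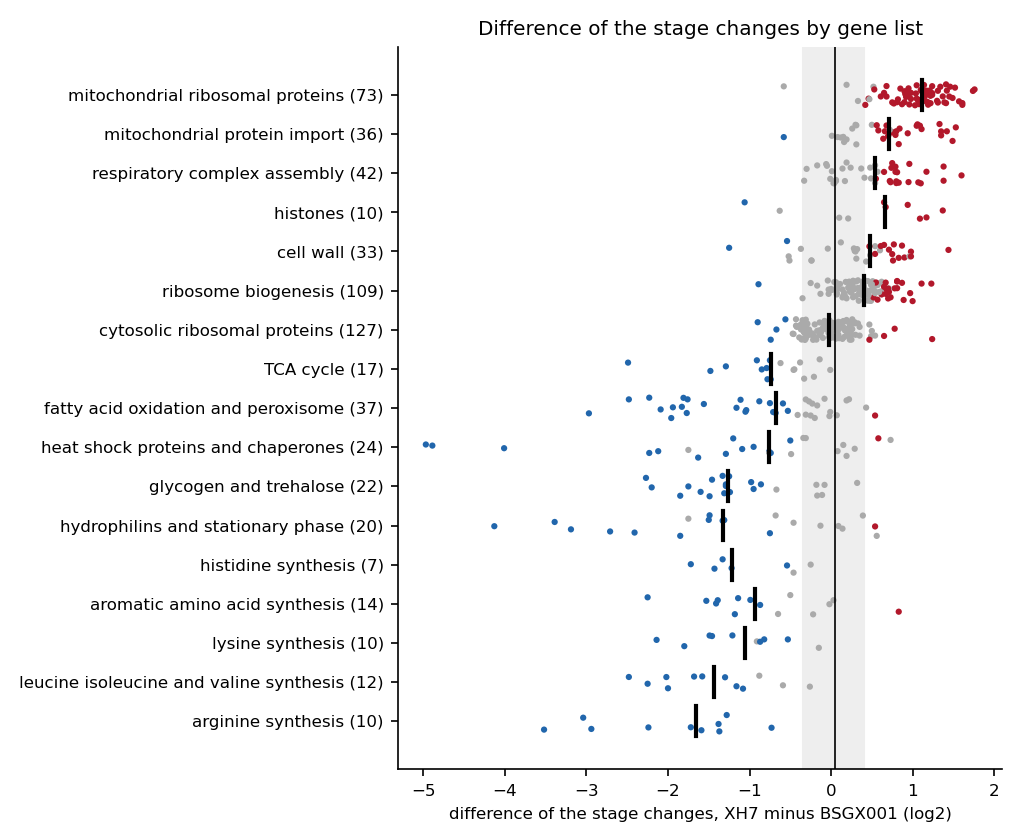
Each point is a gene, placed by the difference of its stage changes (XH7 minus BSGX001, log2) within its list, with the number of genes tested in brackets; red points were called higher, blue lower, grey were not called, black bars are list medians, and the vertical line with the grey band shows the median and the middle 50% of all genes. The mitochondrial ribosomal proteins centre on 1.11 and arginine synthesis on -1.66, while heat shock proteins centre on -0.76.

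Amino acid synthesis genes went the other way. Over the arginine, leucine-isoleucine-valine, lysine, histidine and aromatic lists together, 39 of 52 genes had a lower stage change in XH7 and 1, TRP1, a higher one, with a median difference of -1.29. The median change was -1.98 in XH7 and -0.64 in BSGX001. XH7 had the higher level at X (median 0.76 in log2) and the lower level at GX (median -0.41). Both levels differed in 20 of the 40 called genes, and in all 20 the sign turned between the stages, while 10 differed at X only and 10 at GX only.

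All 10 arginine synthesis genes were called lower, with a median difference of -1.66 and a lowest value of -3.52. For ARG1 the values were 1641 and 1417 CPM in the BSGX001_X libraries, 1465 and 1577 in BSGX001_GX, 2574 and 3924 in XH7_X and 308 and 254 in XH7_GX. In XH7 argininosuccinate synthetase thus fell by 3.53 in log2, the BSGX001 libraries stayed between 1417 and 1641 CPM, and the difference was -3.52 ± 0.28 (adjusted p = 0.000167). ARG8 stood at 164 and 146 CPM in the BSGX001_X libraries, 159.7 and 159 in BSGX001_GX, 607 and 756 in XH7_X and 88.5 and 81.3 in XH7_GX, for acetylornithine aminotransferase, with a difference of -3.04 ± 0.19 (adjusted p = 9.29e-05). ARG3 had 744 and 579 CPM in the BSGX001_X libraries, 653 and 683 in BSGX001_GX, 1240 and 1403 in XH7_X and 198 and 149 in XH7_GX, for ornithine carbamoyltransferase, with a difference of -2.94 ± 0.24 (adjusted p = 0.000184). All 3 genes changed in XH7 only and crossed, higher in XH7 at X and lower at GX. ARG4, argininosuccinate lyase, differed at GX only (-2.24 ± 0.28, adjusted p = 0.000833), and CPA1, the small subunit of carbamoyl phosphate synthetase, at X only (-1.59 ± 0.17, adjusted p = 0.000437). The summed level of the 10 genes was 7141 and 6185 CPM in BSGX001_X, 5211 and 5467 in BSGX001_GX, 10450 and 13630 in XH7_X, and 2227 and 2020 in XH7_GX.

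Of the 12 genes for the branched-chain amino acids, 9 were lower (median -1.44). The level of LEU2 was 131 and 135 CPM in the BSGX001_X libraries, 98.5 and 89.6 in BSGX001_GX, 129 and 139.7 in XH7_X and 18.8 and 14.9 in XH7_GX. The strains overlapped at X, and at GX the XH7 libraries of this β-isopropylmalate dehydrogenase gene lay far below, and the difference was -2.48 ± 0.17 (adjusted p = 9.42e-05), in the GX-only class. BAT1, the mitochondrial branched-chain aminotransferase, crossed, with -2.25 ± 0.20 (adjusted p = 0.000231). LEU9 differed at GX only, with -2.02 ± 0.32 (adjusted p = 0.00214). Of 10 lysine genes 8 were lower (median -1.06): LYS20, a homocitrate synthase gene with a close copy, had -2.14 ± 0.21 (adjusted p = 0.000355), LYS1 -1.80 ± 0.26 (adjusted p = 0.00142) and LYS9 -1.49 ± 0.28 (adjusted p = 0.00441). Of 14 aromatic amino acid genes 8 were lower, led by TRP4 (-2.25 ± 0.23, adjusted p = 0.000406), TRP3 (-1.53 ± 0.18, adjusted p = 0.000697) and ARO1 (-1.41 ± 0.17, adjusted p = 0.000697), all 3 of which crossed. TRP1 went the other way, with 0.83 ± 0.15 (adjusted p = 0.0037), and differed at GX only.

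HIS4 was measured at 2118 and 1746 CPM in the BSGX001_X libraries, 1260 and 1322 in BSGX001_GX, 3038 and 4102 in XH7_X and 788 and 665 in XH7_GX. Histidinol dehydrogenase fell in both strains, by 0.58 in BSGX001 and by 2.30 in XH7, and the strains changed places between the stages, with a difference of -1.72 ± 0.24 (adjusted p = 0.0013). HIS5 differed at X only (-1.43 ± 0.26, adjusted p = 0.00415) and HIS1 at GX only (-1.33 ± 0.24, adjusted p = 0.00408), so these 3 histidine genes were each in another class. Lower stage changes were also found in 12 of 32 genes of sulfate assimilation and methionine, with 3 higher. The lower count of that list was 7 and 6 without BSGX001_GX replicate 1 and 2. In purine synthesis 7 of 15 genes were lower, 4 and 3 without those libraries and 11 without BSGX001_X replicate 1. HOM3, aspartate kinase, which feeds threonine and methionine, had -1.63 ± 0.28 (adjusted p = 0.00318) and differed at GX only.

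The Gcn4 core TGACTC, on either strand of the 250 bases before the start codon, was in 27 of the 52 promoters of these 5 lists (51.9%), in 12.3% of the genes called lower, in 3.3% of those called higher and in 6.5% of all 5464 promoters searched. The other 9 promoter elements searched were the E box, the CCAAT box, the GATA, PAC, MCB, pheromone response and Met31/32 elements and the Rap1 and Mig1 cores. Of these the GATA element GATAAG, bound by activators of nitrogen use, was in 60.0% of the 10 arginine promoters, the same share as the Gcn4 core, and in 23.1% of the 5 lists, 16.6% of the genes called lower, 17.8% of those lower by 2-fold or more, 10.3% of those called higher and 12.4% of all. The CCAAT box was in 60.0% of the arginine promoters too. It was in 44.2% of the 5 lists, 38.4% of the genes called lower, 34.8% of those called higher and 35.9% of all. Within the lists 22 of the 27 genes with the core and 17 of the 25 without it were called lower. For GCN4 the values were 2211 and 1931 CPM in the BSGX001_X libraries, 2054 and 2050 in BSGX001_GX, 4184 and 4486 in XH7_X and 4147 and 3966 in XH7_GX. The messenger of the activator, which is known to be controlled mainly at translation, was higher in XH7 at both stages (gap 1.07 at X and 0.98 at GX), its stage change passed in neither strain, and its difference of -0.08 ± 0.17 (adjusted p = 0.748) was not called. GCN4 was looked up after the list had been seen.

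**Figure D3:**
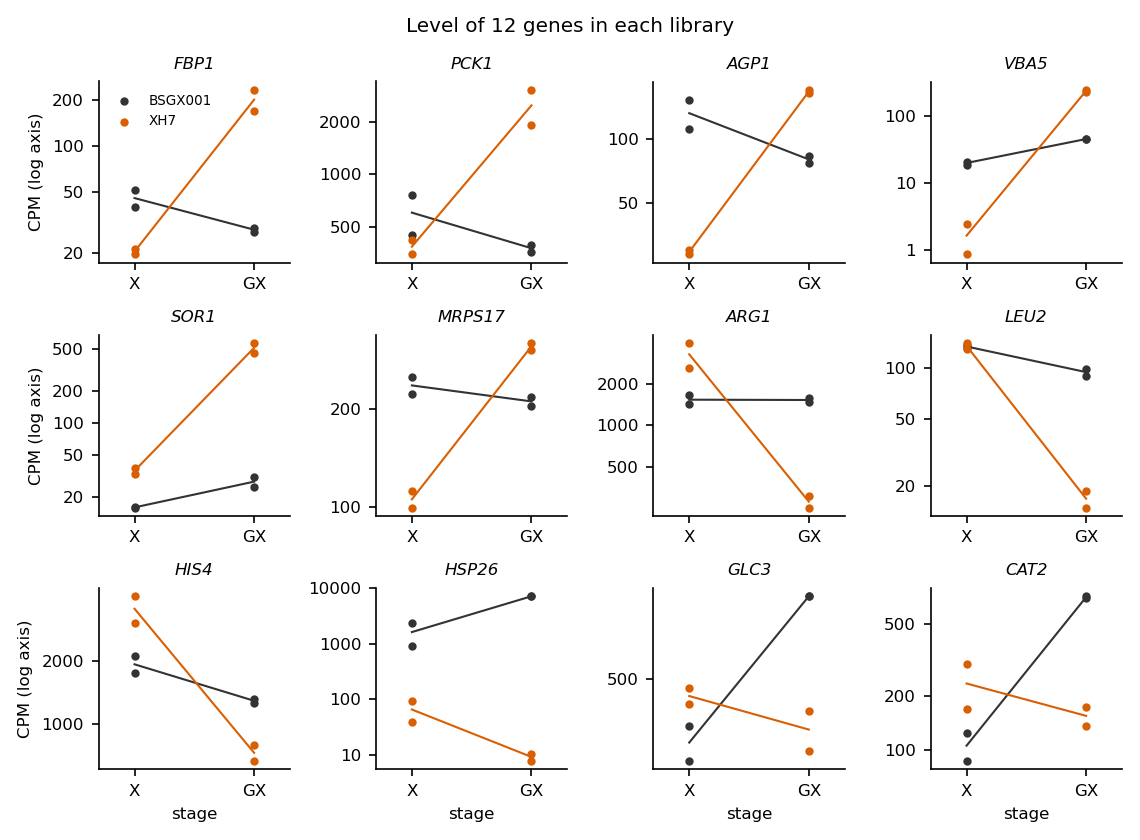
Level of 12 genes in each library (CPM, log axis) at X and GX, with 1 point per library and lines through the group means, black for BSGX001 and orange for XH7. FBP1, AGP1, VBA5 and MRPS17 rise through the BSGX001 level in XH7, ARG1 and HIS4 fall through it, LEU2 parts at GX only, and HSP26 is higher in BSGX001 at both stages.

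Stress and storage genes had the lower stage changes in XH7 too: 18 of 24 heat shock, 15 of 20 stationary phase and 15 of 22 glycogen and trehalose genes rose in BSGX001, and 5, 7 and 3 of the same lists rose in XH7. Over the heat shock, stationary phase, glycogen and trehalose, and fatty acid oxidation lists together, 60 of 101 genes were lower and 3 higher, with a median difference of -0.88, a median change of 0.74 in BSGX001 and -0.02 in XH7. Both levels differed in 43 of the called genes, 30 of them with a wider gap at GX, and 14 differed at GX only.

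Of 24 heat shock proteins and chaperones, 13 were lower and SSC1, the mitochondrial Hsp70, was higher, and in all 14 both levels differed. HSP26 stood at 919 and 2344 CPM in the BSGX001_X libraries, 7245 and 7195 in BSGX001_GX, 92.3 and 38.3 in XH7_X and 10.5 and 7.74 in XH7_GX. The small heat shock protein gene rose in BSGX001 and fell in XH7, and its XH7 libraries were below every BSGX001 library at both stages. The difference was -4.97 ± 0.70 (adjusted p = 0.00126), the strain gap being -4.65 at X and -9.62 at GX, and leaving out 1 library moved it between -5.79 and -4.26. HSP30, of the plasma membrane, likewise turned in opposite directions (-4.89 ± 0.58, adjusted p = 0.000674). SSA3 had 157 and 198 CPM in the BSGX001_X libraries, 2279 and 2378 in BSGX001_GX, 36.9 and 41.9 in XH7_X and 37.2 and 26.6 in XH7_GX. This stress-induced Hsp70 gene rose in BSGX001 by 3.71 and its change in XH7 was -0.30, a difference of -4.01 ± 0.26 (adjusted p = 9.29e-05). The disaggregase gene HSP104 (-2.23 ± 0.35, adjusted p = 0.002) and the small heat shock protein gene HSP42 (-2.12 ± 0.38, adjusted p = 0.00399) followed the same order of levels. SSC1 had 0.58 ± 0.18 (adjusted p = 0.037) and lost its call without 6 of the 8 libraries in turn and with DESeq2's size factors.

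Of 20 hydrophilin and stationary phase genes 11 were lower, with a median of -1.32. The summed level of the 20 genes nevertheless rose in both strains and was higher in XH7 at each stage. It was 3039 and 3246 CPM in BSGX001_X, 7566 and 7531 in BSGX001_GX, 4553 and 4950 in XH7_X, and 7826 and 9207 in XH7_GX. The level of SIP18 was 6.12 and 6.64 CPM in the BSGX001_X libraries, 204 and 195 in BSGX001_GX, 2.13 and 2.06 in XH7_X and 4.61 and 2.77 in XH7_GX. The hydrophilin gene rose in BSGX001 by 4.96, and the difference was -4.13 ± 0.41 (adjusted p = 0.00039). DDR2 was measured at 25.9 and 37 CPM in the BSGX001_X libraries, 163 and 139 in BSGX001_GX, 4.91 and 4.81 in XH7_X and 2.86 and 2.21 in XH7_GX, for a stress-inducible protein, with a difference of -3.19 ± 0.41 (adjusted p = 0.000875). SPG1 was near the bottom in all XH7 libraries, at 1.11 to 1.49 CPM, and rose in BSGX001 from 25.5–31.2 to 236–264 CPM. SPG5, needed for proteasome assembly in stationary phase, was the single higher member, with 0.54 ± 0.18 (adjusted p = 0.0465), a call lost without 7 of the 8 libraries in turn.

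All 16 called genes of the 22 for glycogen and trehalose were lower (median -1.27). For GLC3 the values were 279.8 and 358 CPM in the BSGX001_X libraries, 903 and 904 in BSGX001_GX, 469 and 419 in XH7_X and 398 and 301 in XH7_GX. The glycogen branching enzyme gene rose in BSGX001 only, and the strains changed places between the stages, with a difference of -1.85 ± 0.23 (adjusted p = 0.000833). PGM2, phosphoglucomutase, rose in BSGX001 and fell in XH7 (-2.27 ± 0.41, adjusted p = 0.0037), and so did TPS1, trehalose-6-phosphate synthase (-1.60 ± 0.33, adjusted p = 0.00682), while the strains' TPS1 levels differed at GX only. GPH1, glycogen phosphorylase, fell in XH7 only (-2.20 ± 0.45, adjusted p = 0.00681). The XH7_GX replicates of GPH1 stood at 494 and 221 CPM and those of PGM2 at 471 and 257.

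Of 37 genes of fatty acid oxidation and the peroxisome, 21 were lower and PCS60 higher. POX1 stood at 94 and 119 CPM in the BSGX001_X libraries, 519 and 478 in BSGX001_GX, 121 and 223 in XH7_X and 120.5 and 85.4 in XH7_GX. Acyl-CoA oxidase rose in BSGX001 and fell in XH7, with -2.97 ± 0.38 (adjusted p = 0.000833). FAA2, an acyl-CoA synthetase whose gene overlaps another, had -2.48 ± 0.23 (adjusted p = 0.000291), and CTA1, the peroxisomal catalase, -2.23 ± 0.38 (adjusted p = 0.00314) with a difference at GX only. In the carnitine shuttle, which carries acetyl groups into mitochondria, 3 of 4 genes were lower: CAT2, carnitine acetyltransferase, had 87.6 and 125 CPM in the BSGX001_X libraries, 693 and 709 in BSGX001_GX, 169 and 299 in XH7_X and 174 and 136 in XH7_GX, and its difference was -3.32 ± 0.37 (adjusted p = 0.000494). CRC1, the carnitine carrier (-3.03 ± 0.24, adjusted p = 0.000146), and YAT2 (-1.60 ± 0.16, adjusted p = 0.00039) were higher in XH7 at X, and YAT2 stayed higher at GX.

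The stress element AGGGG, on either strand of the same 250 bases, was in 29.0% of the genes called lower, in 32.5% of those lower by 2-fold or more, in 15.1% of those called higher and in 19.0% of all 5464 promoters. It was in 45.5% of the glycogen and trehalose promoters, 35.0% of the stationary phase and 33.3% of the heat shock promoters. In the fatty acid oxidation and peroxisome list the share was 13.5%, below that of all promoters. Among the 10 histone genes, of which 6 were called higher, it was 40.0%. DDR2 holds the element 3 times in the stretch printed above. MSN4, for an activator that binds this element, had -0.68 ± 0.19 (adjusted p = 0.0257), lost without 4 of the 8 libraries in turn. MSN2, looked up afterwards, had 0.32 ± 0.15 (adjusted p = 0.136) and was not called.

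**Figure D4:**
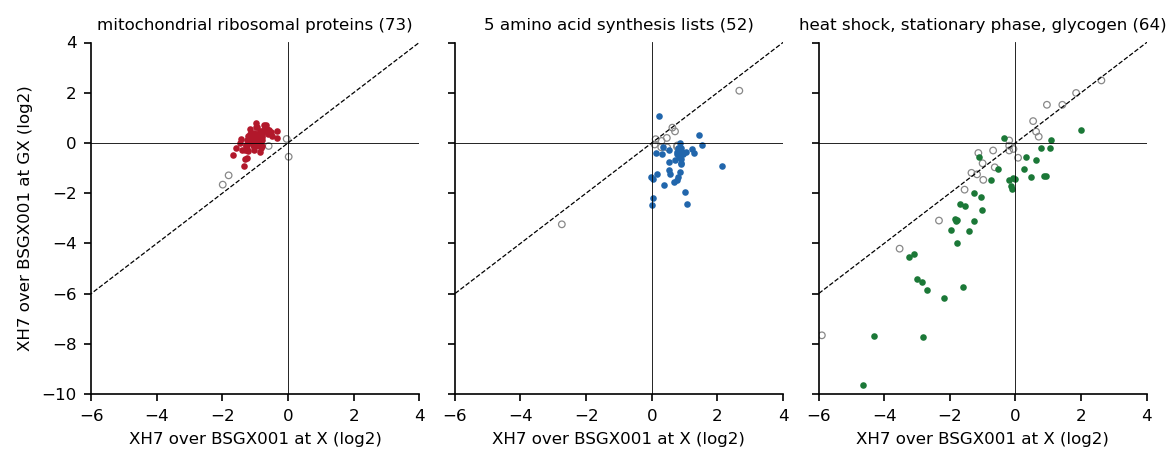
Difference between the strains (XH7 over BSGX001, log2) at X on the horizontal axis and at GX on the vertical axis for 3 groups of genes, with filled points for genes whose stage changes differed, open points for the others, and a dashed line where the gap is equal at both stages. The mitochondrial ribosomal proteins lie mostly left of 0 at X and near 0 at GX, the amino acid genes mostly right of 0 at X and mostly below 0 at GX, and the stress and storage genes mostly below the line.

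Genes of non-fermentable carbon were called in both directions. Of 13 genes of gluconeogenesis and the glyoxylate cycle, FBP1, PCK1 and IDP2 were higher, and MLS1, ACO1, JEN1 and CIT2 were lower (1 and 2 lower without BSGX001_GX replicate 1 and 2, and 2 without XH7_X replicate 2). FBP1 had 51.7 and 39.6 CPM in the BSGX001_X libraries, 29.3 and 27.4 in BSGX001_GX, 21.3 and 19.6 in XH7_X and 168 and 232 in XH7_GX. Fructose-1,6-bisphosphatase fell in BSGX001 and rose in XH7, the strains did not overlap at either stage and their order turned, with a difference of 3.98 ± 0.27 (adjusted p = 9.29e-05). The level of PCK1 was 758 and 445 CPM in the BSGX001_X libraries, 394 and 357 in BSGX001_GX, 421 and 346 in XH7_X and 1916 and 3067 in XH7_GX. Phosphoenolpyruvate carboxykinase rose in XH7 only, with a difference of 3.38 ± 0.39 (adjusted p = 0.000581). Its strain gap passed the test at GX only, and the gap of -0.65 at X, which missed it, is not shown to be absent. IDP2, the cytosolic NADP-dependent isocitrate dehydrogenase, crossed as FBP1 did (2.02 ± 0.26, adjusted p = 0.000833). MLS1 was measured at 24.6 and 20.4 CPM in the BSGX001_X libraries, 194 and 218 in BSGX001_GX, 20.9 and 14.8 in XH7_X and 18 and 19.2 in XH7_GX. Malate synthase of the glyoxylate cycle rose in BSGX001 alone, with a difference of -3.12 ± 0.24 (adjusted p = 0.00013) at GX only. ACO1, aconitase, passed the test of the difference (-1.29 ± 0.41, adjusted p = 0.0388) while its own change passed in neither strain, and it lost its call without 5 of the 8 libraries in turn. JEN1, the lactate carrier, rose in both strains but less in XH7 (-0.92 ± 0.22, adjusted p = 0.0134, a call lost without BSGX001_GX replicate 1). Its level was nevertheless higher in XH7 at both stages. The FPKM at X was 184.4 and 239.4 in XH7 beside 78.27 and 75.74 in BSGX001. At GX it was 487.9 and 584.1 beside 333.0 and 314.1.

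For ALD4 the values were 346 and 528 CPM in the BSGX001_X libraries, 693 and 665 in BSGX001_GX, 836 and 1090 in XH7_X and 147 and 106 in XH7_GX. Mitochondrial acetaldehyde dehydrogenase rose in BSGX001, fell in XH7 and changed places, with -3.56 ± 0.32 (adjusted p = 0.00026). ACS1, acetyl-CoA synthetase, rose in both strains and less in XH7 (-2.08 ± 0.20, adjusted p = 0.000303). PDC6, the minor pyruvate decarboxylase, rose in both as well, by 4.01 in BSGX001 and 1.97 in XH7, and differed at GX only. PDC1, the main one, had 0.90 ± 0.25 (adjusted p = 0.0237), lost without 6 of the 8 libraries in turn. NDE2, an external NADH dehydrogenase of mitochondria, rose in BSGX001 and fell in XH7 (-3.78 ± 0.30, adjusted p = 0.000146), and GUT2, the mitochondrial glycerol-3-phosphate dehydrogenase, rose in BSGX001 only (-1.79 ± 0.17, adjusted p = 0.000365). Of 17 TCA cycle genes 9 were lower and none higher, led by CIT3 (-2.49 ± 0.22, adjusted p = 0.000255). The count was 5 and 2 without BSGX001_GX replicate 1 and 2, 6 and 5 without XH7_X replicate 1 and 2, and 14 without XH7_GX replicate 1. CAT8, an activator of gluconeogenic genes, rose in BSGX001 only (-1.50 ± 0.16, adjusted p = 0.000482). HAP4, the activating subunit of the Hap complex, was looked up afterwards and had -0.13 ± 0.16 (adjusted p = 0.557), which was not called.

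Of the 9 genes altered in these strains, COX4 could not be compared, 3 were higher and 1 lower (44.4% called, beside 29.6% of all genes). The higher ones were RKI1, RPE1 and PHO13, and the lower one was GRE3. PHO13, whose levels are given above, fell in both strains and less in XH7. XKS1, xylulokinase, had -0.03 ± 0.18 (adjusted p = 0.926), TAL1 -0.24 ± 0.19 (adjusted p = 0.356) and TKL1 0.03 ± 0.17 (adjusted p = 0.905), none of them called. RKI1 (0.52 ± 0.16, adjusted p = 0.037) and RPE1 (0.88 ± 0.29, adjusted p = 0.0434), which act beside them in that pathway, fell in both strains, though less in XH7, and each lost its call without 6 of the 8 libraries in turn. In contrast, the paralogs and the oxidative branch, which are not the engineered copies, gave 5 lower genes of 7 (3 without either BSGX001_GX library). GND2 stood at 34.5 and 60.7 CPM in the BSGX001_X libraries, 190.3 and 215 in BSGX001_GX, 18.1 and 19.4 in XH7_X and 17.2 and 15.3 in XH7_GX. This minor 6-phosphogluconate dehydrogenase gene rose in BSGX001 only (-2.30 ± 0.35, adjusted p = 0.00179), and TKL2, the minor transketolase, rose in BSGX001 and fell in XH7 (-1.93 ± 0.26, adjusted p = 0.00109). GRE3, an aldose reductase that makes xylitol, fell in both strains and more in XH7 (-0.79 ± 0.19, adjusted p = 0.0138, lost without BSGX001_GX replicate 2).

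Of 10 polyol dehydrogenase and xylose reductase genes 4 were higher and 3 lower, and of 17 hexose transporters 5 were higher and 5 lower, with 1 and 3 lower without BSGX001_GX replicate 1 and 2. Of the polyol list 70.0% was called and of the hexose transporter list 58.8%, beside 29.6% of all genes. The 17 genes of the transporter list include the glucose sensors SNF3 and RGT2 and the glycerol carrier STL1. In these counts SOR1 and SOR2, HXT15 and HXT16, and HXT6 and HXT7, pairs with equal values, enter as separate genes. Without 1 library the median of the transporter list ran from -0.30 to 0.28. DSF1 had 22.2 and 21.6 CPM in the BSGX001_X libraries, 78 and 82.4 in BSGX001_GX, 1059 and 741 in XH7_X and 15970 and 13550 in XH7_GX. The mannitol dehydrogenase gene rose in both strains, by 1.87 in BSGX001 and 4.04 in XH7, and the gap widened from 5.36 at X to 7.52 at GX, a difference of 2.16 ± 0.26 (adjusted p = 0.000674). The level of SOR1 was 15.9 and 15.8 CPM in the BSGX001_X libraries, 24.8 and 30.8 in BSGX001_GX, 37.5 and 33 in XH7_X and 574 and 459 in XH7_GX. Sorbitol dehydrogenase SOR1 has a near-identical copy, SOR2, with equal values in every library, so the reads of the pair cannot be assigned, and the difference was 3.07 ± 0.22 (adjusted p = 9.69e-05). HXT13 (2.44 ± 0.46, adjusted p = 0.00449, lost without BSGX001_X replicate 1) and the identical-valued pair HXT15 and HXT16 (2.11 ± 0.22, adjusted p = 0.000437), transporters that also carry polyols, rose in both strains and more in XH7. DSF1 and HXT13 likewise have near-identical copies elsewhere in the genome. HXT6 and HXT7, high-affinity hexose transporters with equal values, differed at X only (-0.79 ± 0.18, adjusted p = 0.0111, lost without BSGX001_GX replicate 1). GAL2, the galactose permease that also takes up xylose, rose in BSGX001 only (-1.66 ± 0.28, adjusted p = 0.00272). HXT14 was at 0 and 0.172 CPM in the XH7_X libraries and no fold is given for it.

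Of 18 amino acid permeases 7 were higher and 4 lower, and 4 were higher without BSGX001_GX replicate 1, XH7_X replicate 2 or XH7_GX replicate 2. VBA5 was measured at 20.9 and 18.9 CPM in the BSGX001_X libraries, 45.8 and 45.1 in BSGX001_GX, 0.853 and 2.4 in XH7_X and 248 and 231 in XH7_GX. VBA5, a member of a family of basic amino acid transporters, had the largest positive difference of all genes tested, 5.93 ± 0.28 (adjusted p = 2.12e-05), with XH7 below BSGX001 at X and above it at GX, and the XH7_X libraries held few reads of it. For AGP1 the values were 153 and 111 CPM in the BSGX001_X libraries, 76.9 and 83 in BSGX001_GX, 30.1 and 28.5 in XH7_X and 170.3 and 164 in XH7_GX. This broad-range permease gene fell in BSGX001, rose in XH7 and changed places (3.24 ± 0.21, adjusted p = 9.29e-05). GNP1, for glutamine, and TAT2, for tryptophan, parted at GX only (1.93 ± 0.23, adjusted p = 0.000674 and 0.94 ± 0.16, adjusted p = 0.00278). On the lower side, DIP5, for acidic amino acids, rose in BSGX001 only (-1.02 ± 0.22, adjusted p = 0.00883). Its level was nevertheless higher in XH7 at both stages. The FPKM at X was 197.4 and 264.3 in XH7 beside 19.98 and 22.81 in BSGX001. At GX it was 326.9 and 332.8 beside 56.66 and 52.39. BAP3, for branched-chain amino acids, had 29.5 and 103 CPM in the BSGX001_X libraries and its difference of 2.04 ± 0.65 (adjusted p = 0.0413) was lost without 6 of the 8 libraries in turn. PUT1, proline oxidase, rose in both strains and more in XH7 (1.78 ± 0.31, adjusted p = 0.00318) with a gap at X only. FUI1, the uridine permease, crossed, rising in XH7 only (2.78 ± 0.23, adjusted p = 0.000184).

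Of 127 cytosolic ribosomal protein genes, 4 were higher and 4 lower, 6.3% against 29.6% of all genes, with a median difference of -0.02 that turned to 0.16 with library totals, 0.17 with FPKM and 0.01 with upper-quartile scaling, and 127 fell in BSGX001 and 123 in XH7. The counts were 3 higher and 13 lower without BSGX001_X replicate 1, 8 and 3 without BSGX001_X replicate 2, 1 and 1 without either BSGX001_GX library, and 2 and 3 or 2 and 2 without XH7_X replicate 1 or 2. RPS22B had the highest value (1.24 ± 0.19, adjusted p = 0.00195; it overlaps another gene) and RPL9A the lowest (-0.90 ± 0.22, adjusted p = 0.0146, lost without BSGX001_GX replicate 2 or XH7_X replicate 2). Of 109 ribosome biogenesis genes 22 were higher and 1 lower (median 0.40), 21.1% called, which is below the share over all genes, and the higher count ran from 7 without either XH7_X library, 8 without either BSGX001_GX library and 9 without BSGX001_X replicate 1 to 40 without BSGX001_X replicate 2 and 59 without XH7_GX replicate 1. It was 53 with library totals. NOP16 (1.23 ± 0.18, adjusted p = 0.00132) and FCF2 (1.11 ± 0.17, adjusted p = 0.00185) fell in BSGX001 and rose in XH7. Of 10 histone genes 6 were higher (4 without either BSGX001_GX library or XH7_X replicate 2), and HTB2 was lower, a call lost without 4 of the 8 libraries in turn. HTA1 rose in XH7 only (1.09 ± 0.16, adjusted p = 0.00153), and HHT1 fell in BSGX001 only (1.17 ± 0.18, adjusted p = 0.00189). Of 33 cell wall genes 14 were higher and 2 lower, with 6 and 7 higher without BSGX001_GX replicate 1 and 2 and 7 and 8 without XH7_X replicate 1 and 2. GSC2, a glucan synthase subunit, rose in both strains and more in XH7 (1.44 ± 0.17, adjusted p = 0.000674). Its level was nevertheless lower in XH7 at both stages. The FPKM at X was 42.72 and 37.5 in XH7 beside 193.7 and 177.8 in BSGX001. At GX it was 171.8 and 178.8 beside 280.1 and 246.1. CLB1, a mitotic cyclin, fell in both and less in XH7 (1.38 ± 0.31, adjusted p = 0.0107), with a gap at X only. In iron and copper uptake 1 of 35 genes was higher and 2 lower (8.57% called), but 8 were higher without BSGX001_X replicate 1, 4 without XH7_GX replicate 1, and 11 were lower without BSGX001_X replicate 2 and 0 without either BSGX001_GX library or XH7_GX replicate 1. Of these genes FRE4, a ferric reductase, rose in XH7 only (2.51 ± 0.43, adjusted p = 0.00318).

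**Figure D5:**
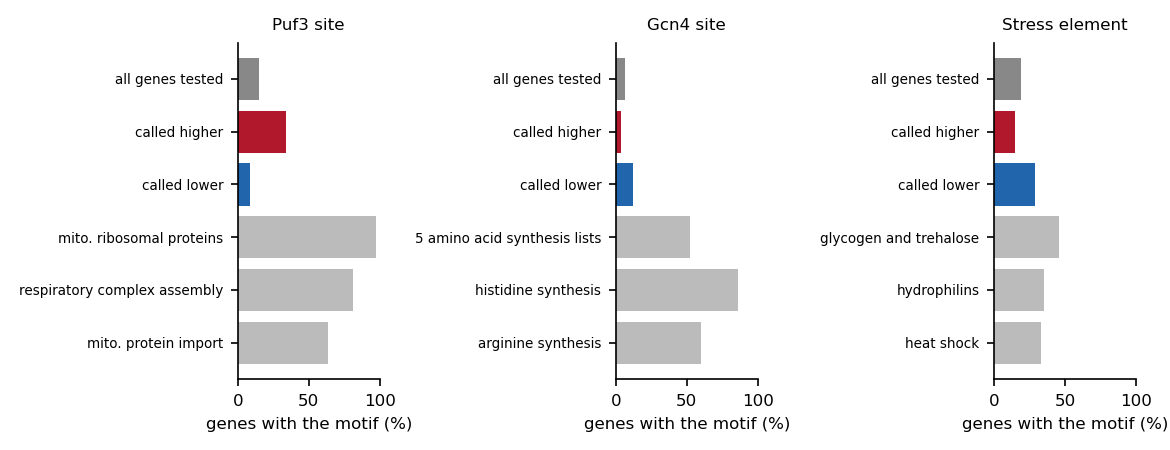
Share of genes (percent, bars from 0) that hold the Puf3 motif within 200 bases after the stop codon, or the Gcn4 core or the stress element within 250 bases before the start codon, among all genes searched (dark grey), genes called higher (red), genes called lower (blue) and 3 lists each (light grey). The Puf3 motif is in 97.3% of the mitochondrial ribosomal protein genes and 15.0% of all genes.

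Some of the largest negative differences rested on uneven replicates. IME1 stood at 7.96 and 5.73 CPM in the BSGX001_X libraries, 18.8 and 14.2 in BSGX001_GX, 108 and 28 in XH7_X and 5.57 and 4.06 in XH7_GX. IME1, the master activator of meiosis, had -5.05 ± 0.87 (adjusted p = 0.00319), with XH7_X replicate 1 far above replicate 2, and leaving out 1 library moved the value between -5.78 and -3.84. YPR145C-A, an uncharacterized reading frame, showed the same uneven pair (84.9 and 25.8 CPM) and had -6.07 ± 0.94 (adjusted p = 0.00197). RNR3, a DNA damage-inducible ribonucleotide reductase gene, had 130.5 and 50.7 CPM in XH7_X and -2.35 ± 0.51 (adjusted p = 0.00883), with a gap at X only. Of 50 sporulation genes 8 were lower and none higher, 16% called beside 29.6% of all genes, and with library totals 7 were higher. GLN1, glutamine synthetase, had 2551 and 832 CPM in BSGX001_X, and its difference of 1.89 ± 0.55 (adjusted p = 0.0292) was lost without 5 of the 8 libraries in turn.

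The 11 transcription factors that the study followed were chosen on these samples, for stage changes in both strains. Here 7 of them rose and 4 fell in each strain. That choice favours genes that changed alike, so the count called says little about them. Only ZNF1, an activator of genes for non-fermentable carbon, was called (9.09%, beside 29.6% of all genes). It had 25.9 and 29.2 CPM in the BSGX001_X libraries, 80.8 and 77.4 in BSGX001_GX, 342 and 333 in XH7_X and 561 and 629 in XH7_GX. ZNF1 rose less in XH7 (-0.70 ± 0.16, adjusted p = 0.0103, lost without BSGX001_GX replicate 1). The other 10 had differences between -0.80 for NRM1 and 0.54 for SFG1, with THI2 at -0.08 ± 0.35 (adjusted p = 0.882) and NRM1 at -0.80 ± 0.34 (adjusted p = 0.107). With 2 libraries a group, a p that misses the threshold does not show that the strains changed alike.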

How the data were processed

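RNA was taken from duplicate fermentations of each strain at each stage, and oligo(dT)-selected mRNA was sequenced by the authors. They deposited an expected count per gene and sample, an estimate of the fragments of that gene without scaling, and an FPKM value that the authors made from these fragments, gene length and depth. No source used here names the aligner, the counter or whether counting used strand, and the submitters' notes name build R64. Tables of the authors' own stage comparisons (mean FPKM, log2 ratio, probability) were not used. Of 48545 expected counts 1722 were not whole, and all were rounded.

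Genes passing filterByExpr (minimum count 10) were fitted with TMM factors and edgeR 4.0.16 in R 4.3.3 (quasi-likelihood F test, Benjamini-Hochberg over 5921 genes, threshold 0.05), and 249 identifiers were not tested. CPM is the count scaled by library total and TMM factor. Log2 values carry their SE, and 2 libraries a group limit the precision. The p-values rest on a spread per gene shared by all 4 groups, between duplicate fermentations of 1 line per strain. Over 5524 genes the SD of the log2 ratio between replicates was 0.304 in BSGX001_X, 0.135 in BSGX001_GX, 0.246 in XH7_X and 0.295 in XH7_GX. Alternatives were DESeq2 1.42.0, limma 3.58.1 on log2(FPKM + 1), other scalings and filters, replicate blocks and each library left out. In data simulated for the difference of the stage changes (5902 genes tested) 14% of 50 genes changed 1.5-fold and 58% of 50 changed 2-fold were called. The shares were 94% of 50 at 3-fold and 96% of 50 at 4-fold, and 3 of 5702 unchanged genes were called. Far fewer genes changed there than the 29.6% called in the real data, and all groups had the same spread per gene. These rates therefore need not hold for the real data. Names were matched by locus tag, and copies were sought with BLAST+ 2.17.0 at 95% identity over 80% of the length.

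Genes were named by rule: the 12 largest differences in each direction at a mean log2 CPM of 3 or more, the 8 largest opposite changes and 4 per level class in each direction, up to 3 called members of each of 58 lists in each direction, and the altered genes and the study's transcription factors. The members, lists and rules were chosen with earlier results of these data known. The Puf3 search and 26 genes outside the rule (among them GCN4, PUF3, HAP4, MSN2, EHD3, RSM10, KGD4, HSP104, HSP42, TPS1, PDC6, HXT15, HXT16, TAT2, CIT2, ARG4 and CPA1) were chosen after values were seen.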

Additional observations from a re-analysis of the deposited data

Results flagged for a closer look

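The stage change differed between the strains by the test of the difference itself in 1750 genes, and 216 genes rose in one strain and fell in the other. Among the latter, the lowest differences (log2, XH7 minus BSGX001) at the expression level required for naming were -4.97 for HSP26 and -4.89 for HSP30, -3.80 for NRS1, -3.78 for NDE2, -3.56 for ALD4, -3.31 for YMR084W, -3.26 for the sulfite pump SSU1 and -3.04 for GAD1, a glutamate decarboxylase. The highest were 3.98 for FBP1 and 3.24 for AGP1, 2.48 for YGR035C, 1.74 for INA1, 1.71 for YJL118W, 1.69 for ATX2, a manganese transporter, 1.66 for MRF1 and 1.66 for YGK1. No group has the 4 samples that a check for single stray libraries needs.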

How the results depend on the processing

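The genes higher in XH7 were 912, and 1617 with library totals, 1527 with limma on log2(FPKM + 1), 606 with DESeq2's Wald test and 425 at an adjusted p of 0.01. Those lower were 838, and 407 at 0.01. The 2-fold higher genes were 449 with library totals and the opposite changes 49 at 0.01. The X-only class held 579 genes with library totals, 555 with FPKM, 205 at 0.01 and 187 when a level had to differ by 2-fold, the GX-only class 354 at 0.01, and the class with both levels 406 under a replicate block within strain, 262 at 0.01 and 174 with the 2-fold limit. The class with neither level held 26 genes with library totals, 79 with the block within strain, 30 with FPKM and 876 with the 2-fold limit. With 1 library left out, the counts ranged over 486–1052 (higher), 489–940 (lower), 220–311 and 320–475 (2-fold higher and lower), 69–294 (opposite), 223–387 (X only), 355–754 (GX only), 352–926 (both) and 4–19 (neither). Fewer libraries enter those fits; for the other changes the cause was not tested. The X and GX libraries came from separate fermentations, and the main fit did not pair them by replicate number. Deviations of same-numbered libraries correlated at -0.035 in BSGX001 and -0.276 in XH7. They also correlated at 0.268 between BSGX001_GX and XH7_X, so these values cannot show whether samples were paired. A replicate block called 821 higher and 769 lower genes and blocks within strain 721 and 730. A crossed pairing within XH7, added after seeing the data, called 985 and 911. Of 272 named and called genes none turned sign, 219 kept the call in all other settings and 172 without each library. Genes not called did turn sign. ADR1, GCN4, HAP4, NRG1, THI2 and XKS1 went to 0.10, 0.10, 0.05, 0.07, 0.10 and 0.15 with library totals and to 0.05, 0.10, 0.05, 0.05, 0.05 and 0.15 with FPKM. TKL1, URA3 and YHP1 went to -0.02, -0.00 and -0.03 with DESeq2's size factors and -0.02, -0.00 and -0.05 in the Wald test, and YHP1 to -0.03 under the block within strain. With 1 library left out, the ranges were -0.30 to 0.11 (ADR1), -0.23 to 0.01 (GCN4), -0.35 to 0.08 (NRG1), -0.48 to 0.60 (SWI5), -0.58 to 0.25 (THI2), -0.07 to 0.09 (TKL1), -0.08 to 0.17 (URA3), -0.16 to 0.09 (XKS1), -0.52 to 0.38 (YHP1) and -0.06 to 0.37 (YPR196W).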

Other observations

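Some lists that the text has not yet described held called genes mostly of one direction. Higher genes prevailed in the proteasome (9 of 35, 0 lower), the thiamine regulon (5 of 17, 0 lower), translation factors (8 of 32, 2 lower) and RNA polymerases I and III (6 of 36, 2 lower). The shares called there were 25.7%, 29.4%, 31.2% and 22.2%, near or below the 29.6% of all genes. Lower genes prevailed in the lists that follow. Of 31 autophagy genes 14 had a lower stage change in XH7 and 1 a higher one (8 and 9 lower without BSGX001_GX replicate 1 and 2, 7 with FPKM), of 23 phosphate regulon genes 9 were lower and 1 higher (6 lower without BSGX001_GX replicate 1 or XH7_X replicate 2), and of 19 hypoxic genes 9 were lower and 1 higher (4 lower without BSGX001_GX replicate 2, 5 without XH7_X replicate 1). Of 28 genes of glucose signalling and repression 12 were lower and 3 higher, with 4 lower without either BSGX001_GX library, 5 and 6 without XH7_X replicate 1 and 2, and 5 with library totals or FPKM. Over all genes tested 14.2% were lower and 15.4% higher. A lower stage change is not a lower level. In the hypoxic list the median gap between the strains (XH7 minus BSGX001, log2) was 1.54 at X and 1.18 at GX. It was -0.30 and -0.86 for autophagy, 0.47 and -0.03 for the phosphate regulon and -0.09 and -0.45 for glucose signalling and repression.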
